A study of Homo sapiens with 11 samples.

Results

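ERLIN1 and 7 genes of endoplasmic reticulum (ER) protein degradation (ERLIN2, RNF139, SYVN1, SEL1L, UBE2G2, AUP1 and VCP) were followed in 769-P, an established line from a human renal cell carcinoma, after siRNA knockdown of AKR1A1. They are 8 of the 33080 genes in the deposited tables, picked by symbol because ERLIN1 was much lower with the first siRNA, and because the others work beside it on sterol-regulated proteins. Gene-level RNA sequencing covered 11 libraries in 3 groups. The group siSCR (n = 4) received a control siRNA and carries the label wild-type. The groups si1 (n = 3) and si2 (n = 4) received the first and the second siRNA against AKR1A1. They are labelled AKR1A1-/-, although the labels describe a transient transfection of the wild-type line and no gene deletion. All groups were the same line, grown in DMEM and transfected with RNAiMAX for 48 h at a labelled siRNA amount of 20 µM. The siRNA sequences are not given in the sources used here, and no label tells if the replicates came from different cultures. The p-values therefore cover the spread among these libraries, which may be technical. In bulk RNA, fewer cells of a kind and less RNA per cell cannot be told apart.

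The erlins are membrane proteins of the ER that assemble into large complexes in cholesterol-rich domains, bind cholesterol and restrain the sterol-sensing transcription factors SREBP. Through ER ubiquitin ligases they also help to remove proteins such as the inositol trisphosphate receptors and HMG-CoA reductase. In ER-associated degradation a ligase in the membrane marks a protein with ubiquitin, a conjugating enzyme supplies the ubiquitin, and the ATPase VCP pulls the marked protein into the cytosol for the proteasome. When sterols are plentiful this route degrades HMG-CoA reductase and squalene epoxidase, and INSIG proteins bring the reductase to its ligases.

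The promoters of SEL1L and VCP are shown because these genes gave, beside ERLIN1 and RNF139, the clearest separation of groups among the 8. SEL1L had its higher levels in si2 and VCP its lower levels in si1. Promoter sequences from RefSeq on GRCh38.p14, 300 bases around each RefSeq gene start, were matched for 5 of the 8 genes (AUP1, SEL1L, SYVN1, UBE2G2 and VCP). Capitals mark the CCAAT box (CCAAT, either strand) and the XBP1 core element (TGACGTGG, either strand), which adjoin but do not overlap in VCP; the motifs were chosen with the sequences in view. Both sequences read 5′ to 3′ on the minus strand, SEL1L at chr14:81533804-81534103 and VCP at chr9:35072576-35072875.
SEL1L: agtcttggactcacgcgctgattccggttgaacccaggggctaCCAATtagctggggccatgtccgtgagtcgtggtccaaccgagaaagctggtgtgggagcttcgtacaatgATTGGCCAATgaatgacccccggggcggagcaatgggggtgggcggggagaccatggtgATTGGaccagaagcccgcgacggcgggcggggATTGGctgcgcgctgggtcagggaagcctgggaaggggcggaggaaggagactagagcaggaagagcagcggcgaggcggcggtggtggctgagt
VCP: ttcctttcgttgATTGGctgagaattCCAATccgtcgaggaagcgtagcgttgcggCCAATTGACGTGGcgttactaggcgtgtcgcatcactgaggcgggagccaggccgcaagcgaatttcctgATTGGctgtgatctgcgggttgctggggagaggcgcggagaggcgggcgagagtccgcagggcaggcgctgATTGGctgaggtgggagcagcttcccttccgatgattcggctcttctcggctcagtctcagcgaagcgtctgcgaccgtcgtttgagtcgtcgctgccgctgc
The SEL1L promoter held 5 CCAAT matches and the VCP promoter 5, while those of AUP1, SYVN1 and UBE2G2 held 0. Of 35116 promoters of 300 bases, 34.6% held at least 1 CCAAT match and 3.26% held 3 or more. VCP also held 1 XBP1 core element, found in 0.729% of promoters. Neither the ER stress element (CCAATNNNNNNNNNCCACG) nor a sterol element (TCACNCCAC) had a match in any of the 5 windows, against 0.0769% and 1.13% of all promoters.

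The libraries held 2108546 to 5939514 reads on genes. Of renal and epithelial markers PAX8, PAX2, CDH2, VIM, KRT8 and KRT18 were detected in every library, EPCAM had 44 reads in all and CA9 had 0. The keratin KRT18 was lower with si1, at 325 to 470 normalized counts, than with siSCR (673 to 831) or si2 (545 to 712); its part in the si1 results was not tested. Of 13 markers of leukocytes, endothelium and fibroblasts, 7 had 0 reads, 4 had 2 to 6 reads in all, and CD68 and COL1A1 had 890 and 440. AKR1A1, the targeted gene, an aldehyde reductase, checked the labels: the siSCR libraries held 200.1 to 390.4 normalized counts, against 23.6 to 81.7 with si1 and 32.1 to 56.6 with si2. Normalized counts are reads divided by the library's size factor, as the authors deposited them on a log2 scale. The first siSCR library stood apart from the others, with 12.1% of its reads from mitochondrial genes against 3.46% to 4.46%. With si1 the share ran from 6.57% to 11.1%, and with si2 from 4.59% to 5.12%. Where leaving siSCR 1 out changed a call, the value without it is given. The library si1 2 had 11618 genes with a read, from 2189728 reads. In si1 3 the number was 13163 from 2108546 reads, and each other library had at least 13154. Of all libraries si1 2 also had the lowest AKR1A1 and ERLIN1 levels.

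In siSCR the 8 genes covered a wide range of levels per kilobase of exon (normalized counts per kb, exons of GENCODE 29). AUP1 was at 237 ± 23.4 (SD, n = 4), VCP at 165 ± 14.8 and UBE2G2 at 36.1 ± 3.78. RNF139 followed at 28.4 ± 3.21, ERLIN1 at 17.4 ± 5.31, SEL1L at 16.2 ± 1.25, ERLIN2 at 8.76 ± 1.34 and SYVN1 at 4.93 ± 1.49. Of neighbours in this order, UBE2G2 and RNF139, ERLIN1 and SEL1L, and ERLIN2 and SYVN1 overlapped between libraries. The ATPase and the adaptor AUP1 thus lay far above the membrane ligases SYVN1 and RNF139 on this scale. In si1 ERLIN1 was the lowest of the 8, at 0.988 ± 0.791 (SD, n = 3). In si2 ERLIN1 (10.3 ± 1.29, n = 4) and ERLIN2 (10.8 ± 0.783) overlapped.

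**Figure D1:**
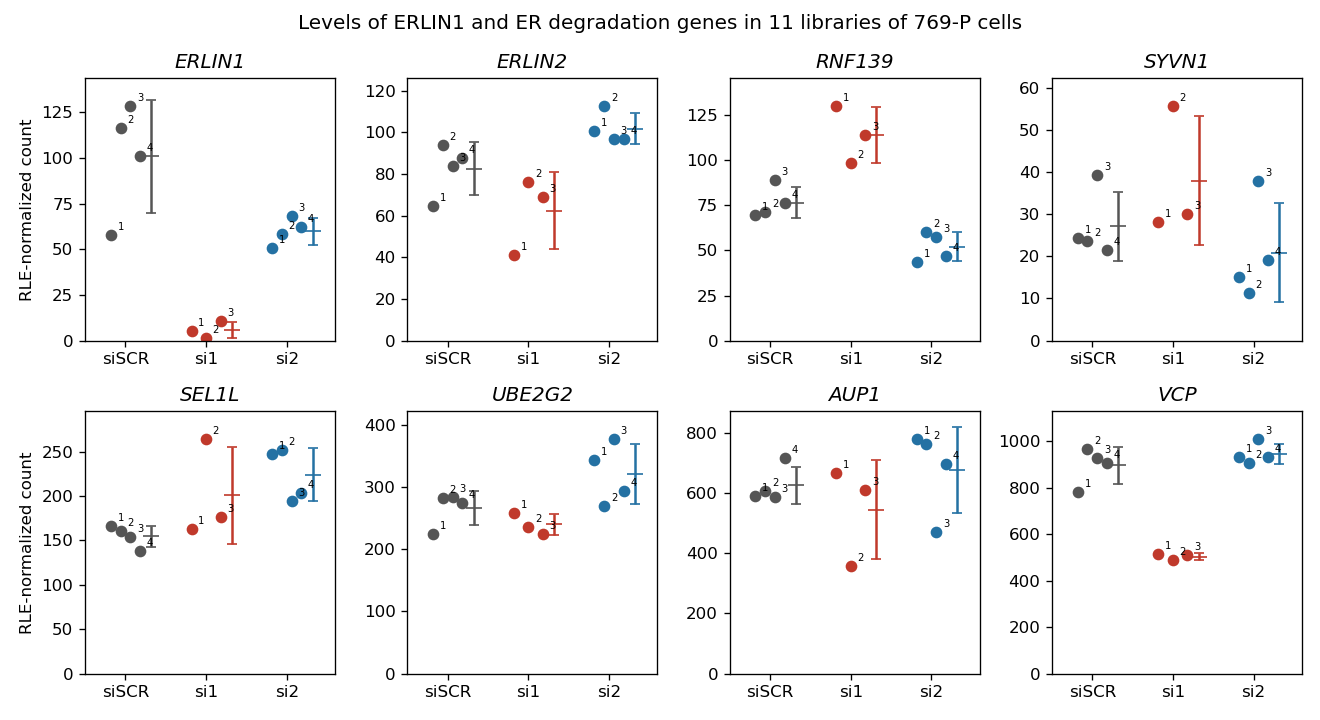
RLE-normalized counts (vertical axes, starting at 0) of the 8 genes in each library of siSCR, si1 and si2; numbers are replicates, and the bars beside the points are the mean and SD. ERLIN1 lies between 1.39 and 10.5 in si1, VCP separates si1 from the rest, and RNF139 separates all 3 groups.

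ERLIN1, a subunit of the erlin complex (ENSG00000107566, chromosome 10 from 100150094 to 100188334, minus strand, GRCh38), was at 57.9, 116, 128 and 101 normalized counts in the siSCR libraries. With si1 it was at 5.27, 1.39 and 10.5, and with si2 at 50.4, 58.6, 68.3 and 62.2. Every si1 library was far below every other library. The si2 libraries lay below siSCR 2, 3 and 4 but around siSCR 1, so those groups overlapped. The si1 values rest on 6, 1 and 7 reads, with exact 95% Poisson intervals of 2.20 to 13.1, 0.0253 to 5.57 and 2.81 to 14.4 reads, which cover counting error only. The siSCR values rest on 69 to 109 reads.

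The mean of ERLIN1 was 17.6-fold lower in si1 than in siSCR (log2 fold change -4.13, SE 0.53, on the log2(normalized count + 1) scale). This value chose the gene and is given with no test. In the authors' deposited table the log2 fold change of ERLIN1 with the first siRNA was -3.12. With the second siRNA the mean went from 101 ± 30.7 (SD, n = 4) to 59.9 ± 7.46 (SD, n = 4). The log2 fold change was -0.69 (SE 0.25, 95% interval -1.24 to -0.14), which did not pass the test (limma adjusted p = 0.160). This comparison uses the siSCR libraries that also entered the choice of ERLIN1, so it is not independent of that choice. In the authors' deposited table it was -0.63 with an adjusted p of 0.100. Without siSCR 1 the log2 fold change was -0.93 and passed (limma adjusted p = 0.00737). With the mitochondrial share as a covariate it was -0.84 (limma adjusted p = 0.00791), and over all alternatives the adjusted p ran from 0.00737 to 0.444. AKR1A1 had means of 50.1 ± 29.4 (SD, n = 3) with si1 and 45.8 ± 10.2 (SD, n = 4) with si2. Its log2 difference was 0.01, with a wide 95% interval of -0.89 to 0.92. ERLIN1 was 10.5-fold higher in si2 than in si1, and the cause of this difference was not tested.

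The genes around ERLIN1 on chromosome 10 were read for comparison. ERLIN1 shares 37 bases of exon, 0.639% of its exon length, with CHUK, a kinase of the NF-kB pathway on the same strand. CHUK was at 51.5 (siSCR), 51.8 (si1) and 51.5 (si2) normalized counts on average, with log2 fold changes of -0.02 (SE 0.26) and -0.01 (SE 0.20), whose signs flipped under other settings. CWF19L1 (-0.38 and -0.33 for si1 and si2) and DNMBP (-0.21 and -0.19) did not pass the test either. BLOC1S2, a subunit of complexes that position lysosomes, held 261 to 367 with si1, against 176 to 232 with siSCR and 142 to 203 with si2. Against siSCR it stood at 0.74 with si1 (SE 0.20; limma adjusted p = 0.0921) and at -0.26 with si2 (SE 0.18; limma adjusted p = 0.457). The limma fit of si2 against si1, which called 6.74% of 10448 genes, also called BLOC1S2 (-0.996). CPN1 and PKD2L1 did not reach the minimum of 10 normalized counts. None of the 4 tested neighbours passed the test with either siRNA, beside 1.72% of 10517 genes with si1 and 3.12% of 10249 genes with si2 that did.

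ERLIN2, the partner of ERLIN1 in the same complex (chromosome 8), was at 64.6, 94.0, 83.7 and 87.6 in siSCR, 41.3, 76.3 and 69.1 in si1, and 100.8, 112, 96.6 and 96.9 in si2. Every si2 library was above every siSCR library, and si1 overlapped siSCR. For si2 the log2 fold change was 0.31 (SE 0.16, 95% interval -0.05 to 0.67; limma adjusted p = 0.335). For si1 it was -0.43 (SE 0.26), given with no test. In the libraries where ERLIN1 had 1 to 7 reads, the mean of ERLIN2 was 62.2 ± 18.5 (SD, n = 3) against 82.5 ± 12.6 (SD, n = 4) in siSCR.

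Because a ratio of 2 genes within a library does not depend on the size factor, ERLIN1 was also set against ERLIN2, per kilobase of exon. The choice of ratios was made after the values were seen. In siSCR the ratio was 1.46, 2.01, 2.49 and 1.87, in si1 0.208, 0.0296 and 0.247, and in si2 0.813, 0.848, 1.15 and 1.04. The si2 ratios all lay below the siSCR ratios, siSCR 1 included. The mean log2 ratio of si2 minus that of siSCR was -1.01, and -1.15 to -0.89 when any 1 library was left out. It is given with no test, since ERLIN1 and the ratio were both chosen from these values. The mean ratio was 1.96 ± 0.426 (SD, n = 4) without knockdown, 0.161 ± 0.116 (SD, n = 3) for the first siRNA and 0.963 ± 0.160 (SD, n = 4) for the second.

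**Figure D2:**
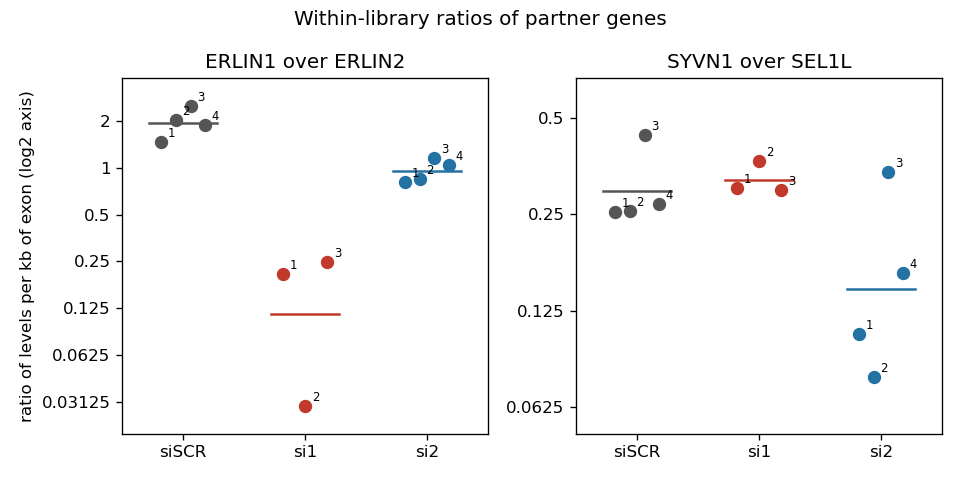
Ratio of normalized counts per kb of exon (log2 axes) for ERLIN1 over ERLIN2 and SYVN1 over SEL1L in each library; numbers are replicates and lines are geometric means. The ERLIN1 to ERLIN2 ratio of each si2 library (0.813 to 1.15) lies below each siSCR library (1.46 to 2.49), while the SYVN1 to SEL1L ratios overlap.

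RNF139, also called TRC8, is a membrane ubiquitin ligase with a sterol-sensing region that acts on HMG-CoA reductase (chromosome 8). It was at 69.7, 71.6, 89.0 and 76.4 in siSCR, at 130.0, 98.5 and 114 with si1, and at 43.3, 60.2, 57.8 and 47.2 in si2. The 3 groups did not overlap: every si1 library was above siSCR and every si2 library below it. For si2 the log2 fold change was -0.55 (SE 0.17, 95% interval -0.93 to -0.18), which did not pass (limma adjusted p = 0.108). In the authors' deposited table it was -0.49 with an adjusted p of 0.203. Without siSCR 1 it was -0.60 and passed (limma adjusted p = 0.0474). For si1 the log2 fold change was 0.57 (SE 0.19), and si2 minus si1 was -1.12 (SE 0.20), both given with no test. The mean was 2.19-fold higher in si1 than in si2, and the cause of this difference was not tested.

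SYVN1, the HRD1 ligase, and SEL1L, the adaptor that stabilizes it and brings substrates to it, form the core of the best-studied ER degradation complex. SYVN1 was at 24.3, 23.5, 39.2 and 21.4 in siSCR, 28.1, 55.5 and 30.1 in si1 and 15.0, 11.2, 37.8 and 19.2 in si2. These values rest on 14 to 40 reads, the groups overlapped, and 10.1% of the exon bases of SYVN1 are shared with other genes, chiefly FAU, a ribosomal protein gene. For si2 the log2 fold change of SYVN1 was -0.47 (SE 0.34, 95% interval -1.22 to 0.29; limma adjusted p = 0.488).

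SEL1L was at 166, 160.2, 154 and 139 in siSCR, 162, 264 and 176 in si1 and 247, 252, 194 and 203 in si2. Every si2 library was above every siSCR library, and 1 of the 3 si1 libraries lay within the siSCR range. The mean was 1.45-fold higher in si2 than in siSCR (log2 fold change 0.52, SE 0.16, 95% interval 0.18 to 0.87; limma adjusted p = 0.103). Without siSCR 1 the log2 fold change was 0.56 and passed (limma adjusted p = 0.0441). In the authors' deposited table the fold change of SEL1L with the second siRNA was 0.49 on the log2 scale, with an adjusted p of 0.0477. The SYVN1 to SEL1L ratio averaged 0.305 ± 0.0916 (SD, n = 4) without knockdown, 0.321 ± 0.0388 (SD, n = 3) for the first siRNA and 0.172 ± 0.117 (SD, n = 4) for the second. With overlapping libraries, its log2 difference between si2 and siSCR was -1.02, given with no test.

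UBE2G2 is the ubiquitin-conjugating enzyme that serves several ER ligases, and AUP1 is a lipid droplet and ER protein that recruits it. UBE2G2 was at 225.0, 282, 284 and 275 in siSCR, 259, 236 and 225 in si1 and 344, 269.7, 377 and 294 in si2. The si2 libraries reached above siSCR but overlapped it, with a log2 fold change of 0.26 (SE 0.17, 95% interval -0.11 to 0.63; limma adjusted p = 0.420). AUP1 was at 591, 608, 586 and 717 in siSCR, 668, 357 and 610.1 in si1 and 778, 764, 472 and 696 in si2. Its groups overlapped, with low values in si1 2 and si2 3, and its log2 fold change for si2 was 0.09 (SE 0.19, 95% interval -0.33 to 0.52; limma adjusted p = 0.840). AUP1 shares 18.3% of its exon bases with other genes, chiefly HTRA2 on the opposite strand, and the strandedness of the libraries is not given in the sources used here.

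VCP, the ATPase that extracts ubiquitinated proteins from the membrane (ENSG00000165280, chromosome 9 from 35056064 to 35073249, minus strand), was at 781, 966, 930.1 and 908 in siSCR. With si1 it was at 513, 487 and 511, and with si2 at 934, 906, 1008 and 932. The 3 si1 libraries lay close together and below all others, while si2 lay within or just above the siSCR range. The mean was 1.78-fold lower in si1 than in siSCR (log2 fold change -0.83, SE 0.17), given with no test, and 1.88-fold higher in si2 than in si1. For si2 against siSCR the log2 fold change was 0.08 (SE 0.14, 95% interval -0.24 to 0.40; limma adjusted p = 0.811). Over the 11 libraries VCP had a Pearson r of 0.94 with ERLIN1 (log2 levels), rank 34 of 6942 genes. It was the highest of the 6 other members compared, SYVN1 being too low to be ranked. The si1 libraries, in which both genes were lowest, set most of the range. This r therefore mostly restates the lower si1 levels and is no separate evidence of a link.

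Of the 8 genes, 0 passed the limma test with si2, beside 3.12% of 10249 genes, and 3 had an unadjusted p under 0.05, beside 19.6% of all genes. No gene of the 8 passed with voom or limma-trend either. In 3 of the 8 (ERLIN2 and SEL1L higher, RNF139 lower) the si2 and siSCR libraries did not overlap, beside 12.6% of all genes (7.09% higher and 5.5% lower). Without siSCR 1, ERLIN1, RNF139 and SEL1L passed, which is 3 of 8 beside 14.4% of 10381 genes. ERLIN1 is among these 3 and among the 3 with an unadjusted p under 0.05. The siSCR libraries also entered its choice, so neither count is independent of that choice. The median log2 fold change of the 8 was 0.09 for si2, with -0.01 over all tested genes. For si1 the groups did not overlap in 3 of the 8 (ERLIN1 and VCP lower, RNF139 higher), beside 21.7% of all genes. The separation of ERLIN1 was fixed by its choice, and without it the count was 2 of 7, near that share. The median was -0.20, with -0.03 over all genes. In the remaining genes the si1 and siSCR libraries overlapped, with log2 fold changes of 0.44 (SE 0.31) for SYVN1, 0.34 (SE 0.22) for SEL1L, -0.15 (SE 0.17) for UBE2G2 and -0.24 (SE 0.25) for AUP1, given with no test. Without si1 2, whose AUP1 level was low, AUP1 stood at 0.035. Both comparisons use the same 4 siSCR libraries. Between si2 and si1 the libraries did not overlap in 5 of the 8 (ERLIN1, ERLIN2, UBE2G2 and VCP higher in si2, RNF139 lower), beside 25% of all genes, given with no test and with ERLIN1 again fixed by its choice.

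**Figure D3:**
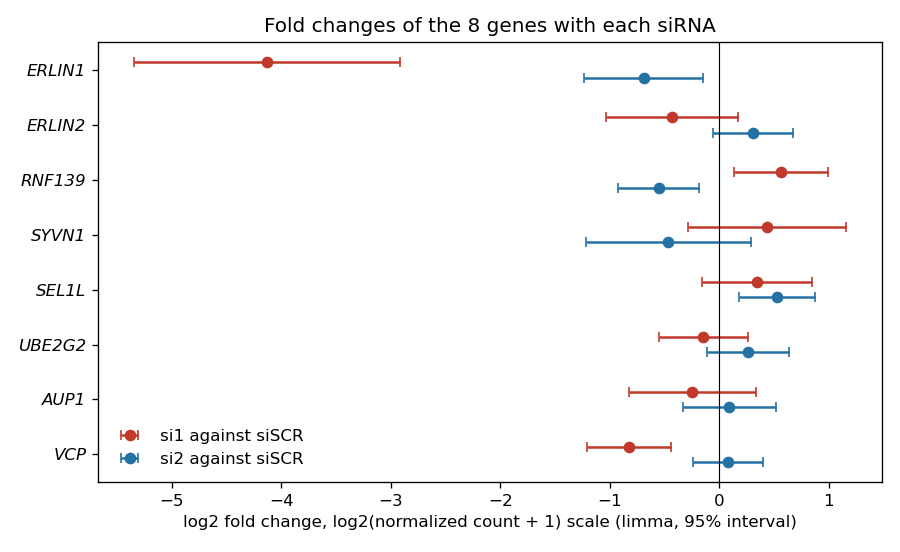
Log2 fold changes (horizontal axis, log2(normalized count + 1) scale) of the 8 genes for si1 and si2 against siSCR, with 95% intervals from limma. The si1 values entered the choice of the genes, so their intervals show spread only and are no test. ERLIN1 stands at -4.13 for si1 and -0.69 for si2, and RNF139 lies on opposite sides of 0.

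Genes with which these proteins work were taken from 9 lists of 117 genes, of which 109 were tested for each siRNA. With si1, 3 of the 109 rose and 1 fell, beside 0.789% of all genes higher and 0.932% lower. With si2, 6 rose and 0 fell, beside 1.93% higher and 1.19% lower. The medians were -0.07 for si1 and 0.09 for si2. Without siSCR 1 the counts were 12 and 14, beside 13.5% of 10340 genes with si1 and 14.4% of 10381 genes with si2. Without any other single library they were 0 for si1, beside at most 0.0372% of all genes. For si2 they were then 2 or 3, beside 0.843% to 1.54% of all genes.

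Sterol-regulated substrates and sterol sensors held most of the listed genes that rose: 3 of 13 with si1 (median 0.61) and 4 of 13 with si2 (median 0.45), while 0 fell. Over all tested genes 0.789% rose with si1 and 1.93% with si2, with medians of -0.03 and -0.01. INSIG1, which brings sterol-bound HMG-CoA reductase to its ligases, rose with si1 (log2 fold change 1.69, SE 0.21; limma adjusted p = 0.0318) and with si2 (log2 fold change 1.68, SE 0.19; limma adjusted p = 0.00363). SQLE, squalene epoxidase and itself a substrate of the ligase MARCH6, rose with both (1.84 and 1.44). SREBF2, the gene of SREBP-2, rose with si2 (0.99, SE 0.22; limma adjusted p = 0.0396). With si1 SREBF2 stood at 1.34 (SE 0.26; limma adjusted p = 0.0511), every si1 library (275 to 312) being above every siSCR library (94.7 to 178). INSIG1, SQLE and SREBF2 are themselves targets of SREBP. With si2, INSIG1 passed without each single library, while SQLE and SREBF2 missed the threshold when any library but siSCR 1 was left out (limma adjusted p = 0.0524 to 0.129). Without siSCR 1 itself they stood at 1.71 and 1.21. The si1 calls of INSIG1 and SQLE were lost without any library but siSCR 1 (limma adjusted p = 0.0659 to 0.155). They were also lost with a term for the replicate number, where 0 of 10517 genes passed with si1.

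Among 11 tested ER ubiquitin ligases other than RNF139 and SYVN1, 2 passed the test with si2, both higher, and 0 passed with si1. The lowest fold change with si1, singled out after its value was seen, was that of TRIM13 (-1.08), at 121 to 227 against 288 to 399 in siSCR. RNF103 was at 63.0, 21.4, 26.2 and 32.6 in siSCR and at 104, 104, 100.8 and 96.9 in si2 (log2 fold change 1.60, SE 0.29; limma adjusted p = 0.0203). In si1 RNF103 was at 62.3, 37.5 and 57.1, around the siSCR libraries. RNF121 was at 136, 104, 107 and 131 in siSCR and at 246, 209, 225 and 263 in si2 (log2 fold change 0.98, SE 0.16; limma adjusted p = 0.0151). With si1 RNF121 was at 297, 208 and 216, above every siSCR library (log2 fold change 0.99, SE 0.21; limma adjusted p = 0.0591). RNF103 lost its call without any library but siSCR 1 (limma adjusted p = 0.0563 to 0.0673; 1.91 without siSCR 1) and RNF121 without siSCR 2, si2 1 or si2 4 (limma adjusted p = 0.0526 to 0.0636). MARCH6, the ligase of squalene epoxidase, had a log2 fold change of -0.49 (limma adjusted p = 0.195) and STUB1, a chaperone-linked ligase, of -0.18 (limma adjusted p = 0.585) with si1.

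Downstream of the ligases, the proteasome list had 1 of 12 genes called: PSMD2, a subunit of the regulatory particle, fell with si1. It held 1112, 665 and 941 with si1, against 2282 to 2915 with siSCR and 2093 to 2576 with si2 (log2 fold change -1.59, SE 0.22; limma adjusted p = 0.0318 for si1, and -0.16 with adjusted p = 0.629 for si2). The call was lost without any library but siSCR 1 (limma adjusted p = 0.0659 to 0.124). With a term for the replicate number it was lost too, as 0 of 10517 genes then passed with si1. The list's median was -0.31 for si1 and 0.11 for si2, and PSMC1, a proteasome ATPase, had -1.19 with si1 (limma adjusted p = 0.0820) and -0.30 with si2 (limma adjusted p = 0.558). Of the 12, 11 had a negative log2 fold change with si1 and 4 with si2, beside 62 and 42 of all 109 listed genes. The share of negative values over all genes was not computed, and of the 12 only PSMD2 passed the test.

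No gene passed the test with either siRNA in 6 further lists. VCP cofactors (22 tested) had medians of -0.08 and 0.01 for si1 and si2. The shuttle factor RAD23B had -0.51 and -0.23, and the membrane cofactor UBXN4 -0.06 and -0.01, the signs of UBXN4 changing under other settings. Partners and lectins of the SYVN1 complex (16 tested) had medians of 0.07 and 0.07, with the lectin OS9 at 0.25 and 0.16 and UBAC2 at -0.31 and -0.05. A list of UBE2 conjugating enzymes, not all of them particular to the ER, and CUEDC1 (8 tested) had medians of -0.11 and 0.06. UBE2D2 stood at -0.25 and 0.22 and UBE2D3 at 0.36 and 0.69. Relatives of the erlins in the SPFH family (7 tested) had medians of 0.01 and -0.08, with the prohibitins PHB at -0.51 and -0.02 and PHB2 at 0.21 and -0.08. The inositol trisphosphate receptors ITPR2 (-0.03 and 0.51) and ITPR3 (-0.15 and -0.18), which the erlins help to degrade, were the 2 tested of 3. Genes of the unfolded protein response (18 tested) had medians of -0.27 and 0.13, with the chaperones HSPA5 at -0.41 and -0.06 and CANX at 0.13 and 0.13. With si1 and si2, limma adjusted p was at least 0.0650 for each of these named genes.

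**Figure D4:**
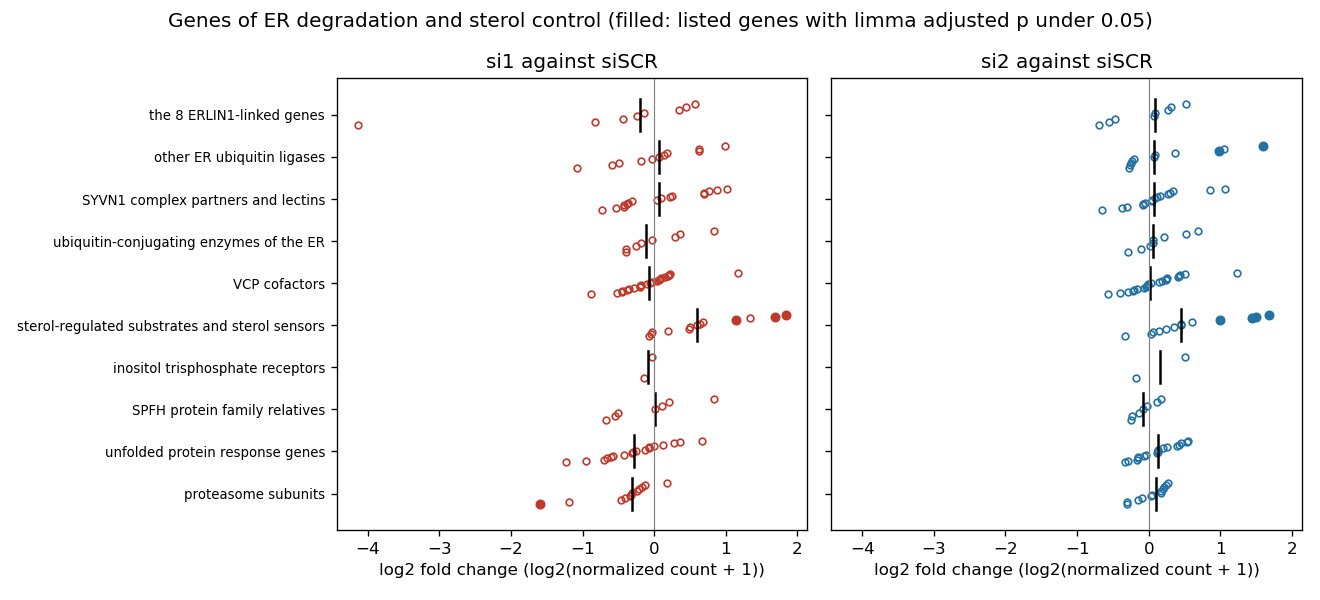
Log2 fold changes (horizontal axes, log2(normalized count + 1) scale) of the 8 genes and of each tested gene in 9 lists, for si1 and si2 against siSCR; black lines are medians, and filled points are listed genes that passed limma at an adjusted p under 0.05. The filled points lie among sterol-regulated genes (up to 1.84 for si1 and 1.68 for si2), ligases (si2) and the proteasome (si1).

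The genes whose log2 levels over the 11 libraries were most like those of ERLIN1 were sought among 6942 genes with a mean of at least 50 normalized counts. NAA50, which acetylates protein N termini, came first (r = 0.99), with means of 220 in siSCR, 42.5 in si1 and 172 in si2. BECN1, a core autophagy gene (0.98), PSMC6, a proteasome ATPase (0.98), ALG2, a mannosyltransferase of N-glycan assembly in the ER (0.97), and TMEM165, a Golgi membrane protein (0.97), followed. The most opposite were ARID5B (-0.98), SNX2 (-0.98), BTG2 (-0.97), MGLL (-0.97) and ZNF503 (-0.96), of which MGLL, monoacylglycerol lipase, had means of 632 in siSCR, 1348 in si1 and 707 in si2. AKR1A1 itself had r = 0.57 with ERLIN1. These correlations describe 11 libraries that fall into groups and share their size factors, and the 3 si1 libraries set most of the range.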

How the data were processed

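Each of 11 libraries is 1 sample, grouped by the titles. The submitters' processing notes name cutadapt, FastQC, STAR, HTSeq and DESeq2 with the build GRCh38, and per the labels' protocols HTSeq counts were normalized by relative log expression (RLE). Tool versions are not given in the sources used here. For each siRNA the authors deposited log2 values of the normalized count plus 1. Undone, 100% of the values of each library were whole multiples of 1 step within 0.01 read, which gave the reads. The siSCR values did not differ between the tables. Other columns, per the file headers, are the authors' mean signal, log2 fold change, p-value and adjusted p, used only where their table is named.

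Each comparison was fitted on its own libraries with limma 3.58.1 (R 4.3.3) on log2(normalized count + 1), with group as the only term. The plan named a count test for raw counts and this fit for log2 values. A gene was tested with at least 10 normalized counts in a number of libraries equal to the smaller group; 8 of 8 members passed. Calls used a Benjamini-Hochberg adjusted p under 0.05 over all tested genes, two-sided; the fit was tested on simulated data. The members and lists were chosen with earlier results of these data known. Of 117 listed genes, 1 had no match. Of each list, up to 4 called genes per siRNA with the largest fold change were named, or, with none called, the 2 of highest level, with the genes next to ERLIN1, and 5 genes were named as most and as least like ERLIN1. A named gene of the sterol list is not reported here. Promoters came from RefSeq. The alternatives were the filter, pseudocount, scaling, test, samples, replicate block, mitochondrial share and leaving out each library. Python 3.11.15 and SciPy 1.17.1 were used for the rest.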

Additional observations from a re-analysis of the deposited data

Results flagged for a closer look

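RNF139 was singled out because every si1 library was above and every si2 library below all siSCR libraries, with si2 minus si1 at -1.12 on the log2 scale. This difference is given as a description, with no test, since si1 values entered the choice of the genes. UBE2G2 was singled out in siSCR, where replicate 1 was at 225.0 against 275 to 284, a gap of 0.863 of the group's range on the log2 scale. It was 1 of 18 groups of 4 libraries looked at, and chance gives such a gap in about 1 of 20 groups. Of the named genes that are not among the 8, PSMD2, RNF103 and BLOC1S2 passed in the limma fit of si2 against si1, beside 6.74% of 10448 genes. Of the 109 pathway genes tested, 5 were higher and 1 lower in that fit, which adds CALR, UFD1L, UBE4A and EDEM2. PSMD2 was higher in si2 by 1.44 (SE 0.22; limma adjusted p = 0.0131), RNF103 was higher by 0.97 (SE 0.21; limma adjusted p = 0.0339) and BLOC1S2 was at -0.996 (SE 0.21; limma adjusted p = 0.0314).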

How the results depend on the processing

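The number of genes called by limma with si1 (181) was 5 with no filter, 567 with a minimum of 50, 414 with a pseudocount of 5, 712 with limma-trend, 582 with voom, 1141 with all 11 libraries in one fit and 0 to 1399 without 1 library, the highest without siSCR 1. For si2 (320) limma called 108 with no filter, 482 with limma-trend, 1343 with the mitochondrial covariate and 88 to 1496 without 1 library. Between the siRNAs (704) limma called 230 with no filter, 1064 with limma-trend, 1172 with voom, 167 with the covariate and 120 to 803 without 1 library. Listed pathway genes called with si1 (4) were 0 with no filter, 9 with a minimum of 50, 8 with limma-trend, 8 with voom, 13 in one fit and 0 to 12 without 1 library. With si2 (6) they were 2 with no filter, 14 with the covariate and 2 to 14 without 1 library. Same-numbered replicates had deviations with r = -0.03 to 0.40, and different-numbered ones r = -0.29 to 0.12. The highest value, 0.40, was that of replicate 1 of si1 and replicate 1 of siSCR. These libraries also had the highest mitochondrial shares, 11.1% and 12.1%. The numbers were not taken as pairs in the main fit, and a replicate block was fitted only as an alternative. Whether a shared batch lies behind this r was not tested. With the replicate block the counts were 0 (first siRNA), 175 (second siRNA) and 6 (between siRNAs), with 0 listed genes for si1.

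Fold changes near 0 changed sign. For si1, CHUK was at 0.011 with upper-quartile rescaling, 0.0036 with voom, 0.040 with the mitochondrial covariate and -0.23 to 0.21 without 1 library. ITPR2 was at 0.0026 with rescaling and -0.24 to 0.31 without 1 library, and UBXN4 at -0.17 to 0.072. For si2, CHUK was at 0.045 with voom and -0.10 to 0.11 without 1 library, UBXN4 at 0.012 with the covariate and -0.058 to 0.023, HSPA5 at -0.16 to 0.0048, OS9 at -0.047 to 0.36, PHB at -0.21 to 0.070, PHB2 at -0.18 to 0.031 and UBAC2 at -0.16 to 0.096. For each of these the cause was not tested. Each of the 8 genes kept its sign for si2 under every alternative. ERLIN1, RNF139 and SEL1L passed without siSCR 1 and with the mitochondrial covariate, under no other. Of all genes, 14.4% of 10381 and 13.1% of 10249 passed under these settings. The siSCR libraries also entered the choice of ERLIN1. SYVN1 was too low to be tested with a minimum of 50. With 1 to 7 reads a library, depth limits the size of the ERLIN1 difference with si1, whose log2 value ran from -4.66 to -3.34.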
